A study of Mus musculus with 12 samples.

Results

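The response of CD8 T cells without Otub1 to 24 h of activation was read from 6 of the 12 RNA sequencing libraries of a mouse study, 3 of fresh and 3 of stimulated Otub1 knockout cells. The libraries were chosen by their source labels, and the comparison covered 12759 of 23420 listed genes, those that passed a filter on low counts. All mice were on the C57BL/6 background, 6 to 8 weeks old, and carried the OT-I transgene, a T cell receptor for an ovalbumin peptide. The knockout mice carried in addition an Otub1 deletion driven by CD4-Cre, a recombinase expressed in developing T cells, those of the CD4 lineage included, and a genotype tag reads OTUB1-DKO. Stimulated cells had spent 24 h on plate-bound anti-CD3 with anti-CD28, each at 1 µg/ml, antibodies that stand in for antigen and costimulation. Fresh cells are labelled untreated and the design text gives no culture for them, so effects of the antibodies and of culture cannot be told apart. The 6 wild-type libraries, 3 fresh and 3 stimulated under the same conditions, served to ask where the response of the knockout differed. The design text names naive splenic CD8 T cells, whereas a cell type tag names dendritic cells and a protocol text calls all samples fresh.

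Engagement of the T cell receptor and CD28 takes a naive T cell out of quiescence. Calcium, MAP kinase, NF-kappaB and PI3K signalling switch on MYC and IRF4, which drive growth, nutrient uptake and glycolysis, and IL-2 signalling through STAT5 sustains them. Homing receptors for lymph nodes are lost, and entry into the cell cycle and effector cytokine and granzyme production follow. OTUB1 is a deubiquitinase that cleaves ubiquitin chains and also binds loaded ubiquitin-conjugating enzymes and blocks their activity. It is known in CD8 T cells as a regulator of the kinase AKT downstream of IL-15.

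Library depth in the 6 knockout libraries was 19013482 to 25920035 gene counts, and 14482 to 15287 genes had a count in a library. A first principal component of these 6 libraries carried 95.5% of the variance and parted the stimulated libraries from the fresh ones, and the next carried 2.07% and set apart fresh replicate 2 and stimulated replicate 3, the libraries with Y-linked reads. Whether every replicate came from a separate animal is not in the labels. Each knockout group held libraries with and without Y-linked reads, so its replicates did not all come from the same animal. The p-values reflect only the spread among these libraries, which may be in part technical. Values are CPM, the counts of a gene per 1000000 counts of its TMM-scaled library, and are given in the order of replicates 1, 2 and 3. CPM are shares of a library, so every rise or fall is relative to the other transcripts, and total RNA per cell was not measured. Scaling by the upper quartile in place of TMM moved the median log2 fold change of all genes from −0.02 to −0.14.

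Otub1 itself (chromosome 19, 7198206 to 7206284, GRCm38.p6) was at 25.4, 28.8 and 28.6 CPM in the fresh libraries and at 16.2, 13.8 and 14.5 CPM in the stimulated ones, and the groups did not overlap. It fell on stimulation (log2 fold change −0.89 with SE 0.15, edgeR adjusted p = 3.65e-05). In wild type it was at 72.6, 70.8 and 45.1 CPM fresh and 85.7, 100.1 and 96.1 CPM stimulated, above every knockout library of the same state. Counts per gene cannot tell the deleted exons from the others. Markers of dendritic, B and myeloid cells, given below, were mostly lower after stimulation as well. The part of these cells in the fall of Otub1 was not tested.

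Activation changed most of the transcriptome. A gene was called at an edgeR quasi-likelihood test with Benjamini-Hochberg adjusted p under 0.05 over all genes. By this rule 5323 genes (41.7%) rose and 5386 (42.2%) fell, and 2050 were not called. With a change of at least 2-fold required as well, 2533 genes (19.9%) rose and 2900 (22.7%) fell. A 4-fold change was passed by 944 genes upwards and 1320 downwards, and a 16-fold change by 188 and 352. The fresh and stimulated libraries did not overlap for 10792 genes (84.6%), and the median log2 fold change over all genes was −0.02. Since most genes were called, counts of called members in the gene lists below are to be read against these shares. Lists with about as many members higher as lower, such as those of the NF-kappaB pathway, effector transcription factors and chemokines, lie near these shares. Such a split is not particular to the list.

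**Figure D1:**
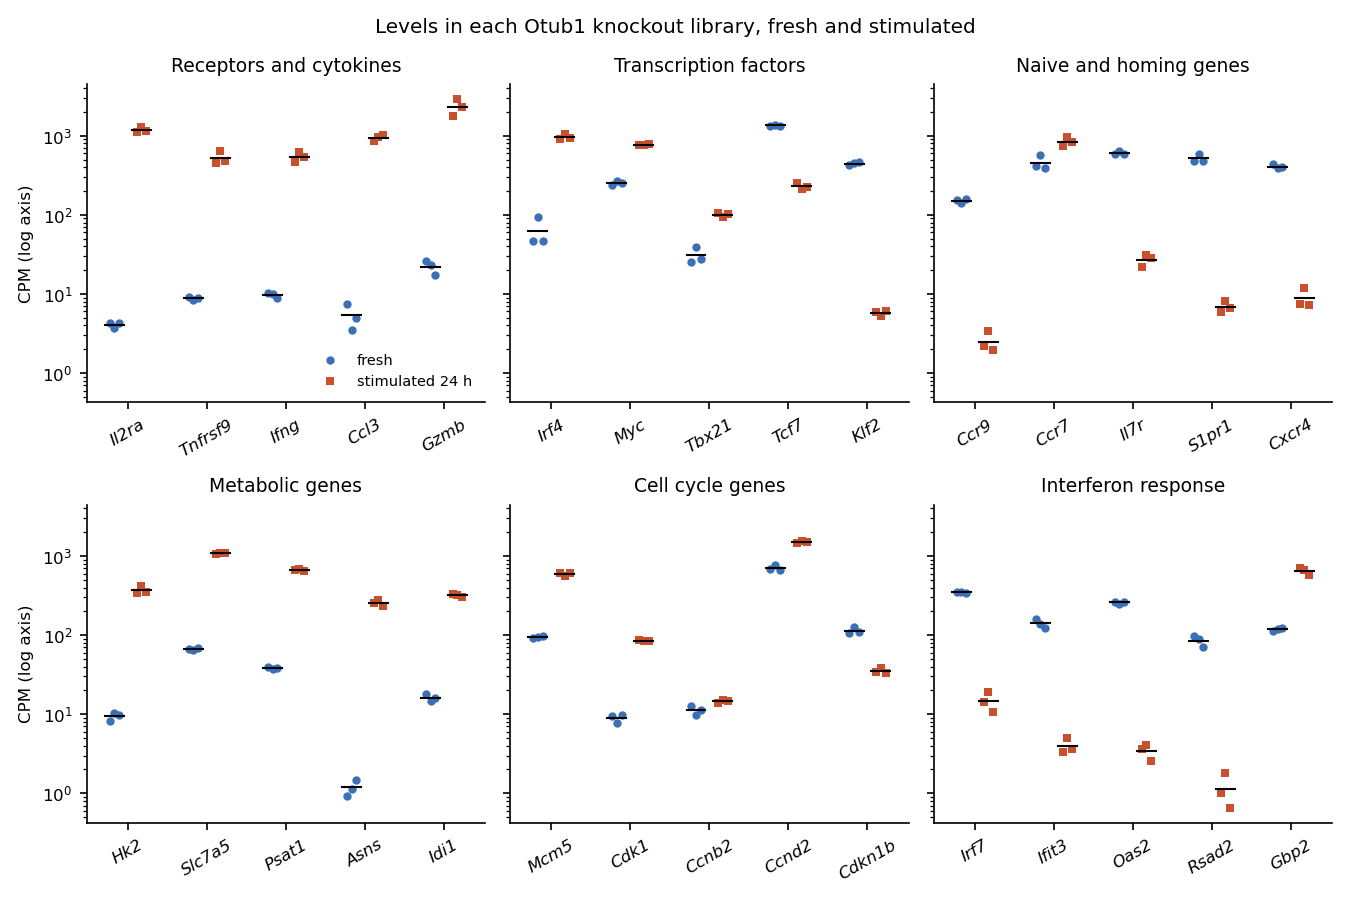
Level in each Otub1 knockout library of 30 genes in 6 groups, as CPM on a log axis (circles: 3 fresh libraries; squares: 3 stimulated libraries; bars: group means). Fresh and stimulated libraries do not overlap for any of these genes, and Ccr7 lies higher after stimulation while the other naive and homing genes lie lower.

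Most activation and costimulation genes rose, among them Il2ra of the IL-2 receptor. Of 21 activation and costimulation genes 16 rose and 3 fell, with a median log2 fold change of 1.71. Il2ra, the high-affinity chain of the IL-2 receptor (chromosome 2, 11642792 to 11693194), was at 4.26, 3.67 and 4.31 CPM in the fresh libraries and at 1105, 1306 and 1142 CPM in the stimulated ones. Every stimulated library lay far above every fresh one (log2 fold change 8.18 with SE 0.12, edgeR adjusted p = 9.58e-17). Tnfrsf9, which encodes 4-1BB, rose from 9.19, 8.46 and 8.96 CPM to 454, 640.0 and 480.1 CPM, and Tnfrsf4, which encodes OX40, rose from 5.97, 5.97 and 6.47 CPM to 55.2, 73.9 and 55.9 CPM (log2 fold change 5.89 and 3.32). The costimulatory receptor Icos and the adhesion receptor Cd44 rose less, with log2 fold changes of 1.93 and 1.5. Cd69, a receptor of early activation, was instead slightly lower, at 362, 364 and 330.3 CPM in the fresh libraries and at 256, 292 and 281 CPM in the stimulated ones (log2 fold change −0.35 with SE 0.09, edgeR adjusted p = 0.00273). The other falls were those of Cd40lg, the CD40 ligand of helper T cells, and Cd86, a ligand of CD28 on antigen-presenting cells (log2 fold change −2.41 and −1.63).

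Inhibitory receptors split, with 6 of 13 higher and 7 lower. Pdcd1, which encodes PD-1, was at 2.96, 1.49 and 3.5 CPM in the fresh libraries and at 71.2, 58 and 73.9 CPM in the stimulated ones (log2 fold change 4.69 with SE 0.19, edgeR adjusted p = 1.46e-12). Lag3, a receptor for MHC class II, rose from 5.45, 3.98 and 8.53 CPM to 107, 96.2 and 73.7 CPM, and Tigit, a receptor for nectins, from 4.47, 8.33 and 5.61 CPM to 15.7, 16.6 and 15.1 CPM. Ctla4 rose as well, from 37.2, 41 and 30.4 CPM to 119, 169 and 70.9 CPM (edgeR adjusted p = 1.43e-05), with a wide spread among stimulated libraries. Pdcd1lg2, a ligand of PD-1, had a log2 fold change of 4.20. Havcr2, which encodes TIM-3, fell with overlapping libraries (log2 fold change −0.68 with SE 0.23, edgeR adjusted p = 0.0136), and Cd244 and Entpd1 fell with log2 fold changes of −4.46 and −2.93. The call of Havcr2 was lost without fresh replicate 3 or without stimulated replicate 1 or 3 (edgeR adjusted p = 0.1, 0.07 and 0.0502).

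Transcription factors of the activated T cell rose beside others that fell. Among 24 effector transcription factors 11 rose and 11 fell. Irf4, which scales with receptor signal strength, was at 46.4, 92.9 and 46.4 CPM in the fresh libraries and at 907, 1066 and 947 CPM in the stimulated ones (log2 fold change 3.97 with SE 0.21, edgeR adjusted p = 5.23e-11). Fresh replicate 2 was above the other fresh libraries, and all stimulated libraries were well above it. Myc, the regulator of T cell growth, rose from 237, 270.3 and 250.5 CPM to 760.3, 774 and 788 CPM (log2 fold change 1.62 with SE 0.05, edgeR adjusted p = 1.16e-13). Zbtb32, a repressor induced by activation, had the highest log2 fold change of the list, 6.27, and Irf8 rose by 2.72. Tbx21, which encodes T-bet, rose from 25.6, 38.7 and 27.7 CPM to 107, 93 and 103 CPM, and its relative Eomes from 85.6, 119 and 89.5 CPM to 152, 172 and 175 CPM (log2 fold change 1.72 and 0.76). Batf, a partner of IRF4, was at 20.8, 24.7 and 28.3 CPM in the fresh libraries and at 17.5, 17.4 and 19.1 CPM in the stimulated ones and fell slightly (log2 fold change −0.45). Prdm1, which encodes BLIMP-1, was at 4.99, 5.02 and 3.36 CPM in the fresh libraries and at 2.67, 4.34 and 3.44 CPM in the stimulated ones and was not called (edgeR adjusted p = 0.0955). It was called lower without fresh replicate 3 or without stimulated replicate 2, and with upper-quartile scaling (edgeR adjusted p = 0.0205, 0.026 and 0.0319). Bcl6, a repressor of effector differentiation, fell with a log2 fold change of −2.29.

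Among early response factors of T cell receptor signalling, 12 of 22 rose and 6 fell, and the families parted. Fos, a subunit of AP-1, was at 1373, 768 and 1323 CPM in the fresh libraries and at 9.25, 12.4 and 10.9 CPM in the stimulated ones (log2 fold change −6.74 with SE 0.24, edgeR adjusted p = 3.88e-13). Fosb fell from 517, 201 and 494 CPM to 8.71, 7.95 and 7.32 CPM and Jun from 244, 151 and 246 CPM to 50.4, 57.5 and 56.7 CPM. In the fresh group replicate 2 was lowest for all 3 of these, and no stimulated library reached a fresh one. Fosl1, another Fos family gene, went the other way, from 0, 0 and 0.0479 CPM to 2.44, 1.83 and 3.31 CPM, and Npas4, known from neuronal activity, rose from 0.156, 0.407 and 0.336 CPM to 23.6, 14.5 and 19.9 CPM. The nuclear receptor Nr4a1 and the zinc finger factor Egr1, both read-outs of recent receptor signalling, were higher at 24 h than in fresh cells (log2 fold change 0.96 and 0.47). Fosl2 was at 64.6, 123 and 57.8 CPM in the fresh libraries and at 76.9, 104 and 75.1 CPM in the stimulated ones. It was not called with all libraries (edgeR adjusted p = 0.831) and rose without fresh replicate 2 (log2 fold change 0.48, edgeR adjusted p = 0.0106) and when the libraries with Y-linked reads were left out (0.56, edgeR adjusted p = 0.000858).

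Genes of the NF-kappaB pathway split, with 10 of 22 higher and 11 lower (median log2 fold change −0.09). Nfkb1, the p105 precursor of p50, was at 257, 281 and 266 CPM in the fresh libraries and at 1018, 1127 and 1154 CPM in the stimulated ones (log2 fold change 2.04 with SE 0.06, edgeR adjusted p = 2.1e-14). Nfkb2 and Relb of the noncanonical arm had log2 fold changes of 1.90 and 0.61, and the inhibitor Nfkbia one of 0.40. Tnfaip3, which encodes the deubiquitinase A20, fell from 863, 1266 and 746 CPM to 133, 142 and 138 CPM (log2 fold change −2.80 with SE 0.14, edgeR adjusted p = 2.84e-11). Every fresh library lay far above every stimulated one.

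Cytokine and chemokine genes showed some of the widest changes. Of 15 tested cytokines 11 rose and 4 fell, with a median log2 fold change of 2.63. Ifng, which encodes interferon gamma, was at 10.3, 10.05 and 8.82 CPM in the fresh libraries and at 463, 623 and 535 CPM in the stimulated ones (log2 fold change 5.79 with SE 0.16, edgeR adjusted p = 2.77e-14). Tnf rose from 7.22, 4.93 and 10.4 CPM to 89.4, 101 and 106 CPM, and Csf2, which encodes GM-CSF, from 0.467, 0.679 and 0.575 CPM to 20.3, 35 and 32.4 CPM. Il2 had 2 counts in all 3 fresh libraries together and 1377 in the stimulated ones, and was at 13, 23.9 and 25.1 CPM after stimulation. Il3 had no count in the fresh libraries and was at 9.21, 13.2 and 18.6 CPM after stimulation, at least 283-fold higher when set against 3 counts over the fresh group. With Il3 at that bound the median of the list is the same. Ltb, the lymphotoxin beta gene of naive lymphocytes, fell from 427, 412 and 499 CPM to 127, 139 and 108 CPM (log2 fold change −1.84 with SE 0.09, edgeR adjusted p = 1.81e-11), and Tgfb3 fell by 2.69 on the log2 scale.

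Chemokines and their receptors split, with 9 of 19 higher and 9 lower. Ccl3 was at 7.53, 3.53 and 4.99 CPM in the fresh libraries and at 849, 952 and 1018 CPM in the stimulated ones (log2 fold change 7.47 with SE 0.23, edgeR adjusted p = 6.33e-14). Ccl4 rose from 15.7, 12.6 and 12.7 CPM to 591, 669 and 698 CPM, and Xcl1, the ligand that draws cross-presenting dendritic cells, from 6.91, 6.25 and 5.75 CPM to 658, 525 and 879 CPM. Ccl5, a chemokine of memory and effector cells, went down instead, from 131, 110.3 and 108 CPM to 23, 26.9 and 26.7 CPM (log2 fold change −2.19 with SE 0.11, edgeR adjusted p = 2.05e-11). Cxcr4, the receptor for CXCL12, fell from 439, 387 and 399 CPM to 7.55, 11.8 and 7.32 CPM, and Cxcr3, a receptor of effector and memory cells, from 49.9, 70.5 and 54.8 CPM to 16, 11.3 and 20.6 CPM (log2 fold change −5.54 and −1.86). Ccr9, the gut-homing receptor, fell with a log2 fold change of −5.94.

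Cytotoxic genes did not move as a block, with 6 of 17 higher and 8 lower. Gzmb, which encodes granzyme B (chromosome 14, 56258836 to 56262334), was at 25.8, 23.2 and 17.2 CPM in the fresh libraries and at 1756, 2926 and 2336 CPM in the stimulated ones (log2 fold change 6.73 with SE 0.20, edgeR adjusted p = 4.47e-14). Stimulated replicate 2 was highest, and no library overlapped. Serpinb9, which protects the cell from its own granzyme B, rose from 29.3, 31.2 and 30.9 CPM to 339.8, 473 and 459 CPM (log2 fold change 3.80 with SE 0.10, edgeR adjusted p = 1.62e-14). Prf1, which encodes perforin, was at 59.6, 52.3 and 62.2 CPM in the fresh libraries and at 52.5, 57.8 and 62.2 CPM in the stimulated ones, with overlapping groups and no call (edgeR adjusted p = 0.872). Gzma, a granzyme of memory CD8 T and NK cells, fell from 59.4, 28.1 and 26 CPM to 0.542, 0.837 and 0.516 CPM, and Gzmk fell from 4.05, 2.08 and 2.83 CPM to 0.0387, 0.157 and 0 CPM. NK cell markers, among which Gzma was counted, fell too: 8 of 9 tested were lower, and their sum went from 73.4 to 122 CPM in the fresh libraries to 17.6 to 20.1 CPM in the stimulated ones. The part of NK cells in the fall of Gzma and Gzmk was not tested. In bulk samples fewer cells of a type and less RNA per cell cannot be told apart.

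Genes of the IL-2 and STAT5 response, receptor chains and Jak1 included, were called in either direction, 13 of 21 higher and 8 lower. Cish, a feedback inhibitor of cytokine receptors, was at 3.69, 4.39 and 4.89 CPM in the fresh libraries and at 223, 231 and 237 CPM in the stimulated ones (log2 fold change 5.73 with SE 0.09, edgeR adjusted p = 1.52e-16). Lif, a cytokine of the IL-6 family, rose from 2.08, 3.39 and 1.82 CPM to 194, 269 and 185 CPM and Il12rb2, a receptor chain for IL-12, from 12.7, 12.3 and 11.3 CPM to 162, 221 and 131 CPM. Pim1, a survival kinase, and Socs1, a suppressor of JAK signalling, rose by 1.87 and 1.46 on the log2 scale, whereas Socs3 fell by 1.88. The shared receptor chains moved little: Il2rb had a log2 fold change of 0.52 and Il2rg, the common gamma chain, one of −0.64. Jak1, the kinase paired with IL2RB, fell from 1349, 1476 and 1282 CPM to 360.4, 379.9 and 351 CPM.

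Genes of the BCL2 family, pro-apoptotic members included, split, with 10 of 18 higher and 7 lower. Bcl2l1, which encodes BCL-XL, was at 17, 19.9 and 16.6 CPM in the fresh libraries and at 212, 214 and 258 CPM in the stimulated ones (log2 fold change 3.67 with SE 0.09, edgeR adjusted p = 9.32e-15), and Bcl2 rose with a log2 fold change of 0.72. Mcl1 fell by 0.29 on that scale. The pro-apoptotic BH3-only genes Bbc3, Pmaip1 and Bmf fell, with log2 fold changes of −1.46, −1.49 and −1.64. Another BH3-only gene, Hrk, had no count in fresh cells and 32 counts in the 3 stimulated libraries together. Bcl2l11, which encodes BIM, was at 79.3, 80.5 and 84.9 CPM in the fresh libraries and at 84.2, 62.9 and 81.1 CPM in the stimulated ones and was not called (edgeR adjusted p = 0.325), but was called lower with upper-quartile scaling (edgeR adjusted p = 0.0309).

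Genes whose products work with OTUB1 or belong to the same OTU family split, with 11 of 21 tested higher and 8 lower and a median log2 fold change of 0.13. Ube2n, which encodes the conjugating enzyme UBC13 that OTUB1 inhibits, was at 79.9, 83.5 and 86.1 CPM in the fresh libraries and at 183, 187 and 186 CPM in the stimulated ones (log2 fold change 1.15 with SE 0.05, edgeR adjusted p = 5.09e-12). Ube2d1, another conjugating enzyme, fell from 36.9, 38 and 36.7 CPM to 20.05, 18.5 and 18.6 CPM. Otub2, the close paralog of Otub1, was at 3.84, 7.29 and 2.88 CPM in the fresh libraries and at 1.94, 2.72 and 2.41 CPM in the stimulated ones (log2 fold change −1.01 with SE 0.27, edgeR adjusted p = 0.00244). Otud6b rose by 1.71 and Otud1 fell by 1.75 on the log2 scale.

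**Figure D2:**
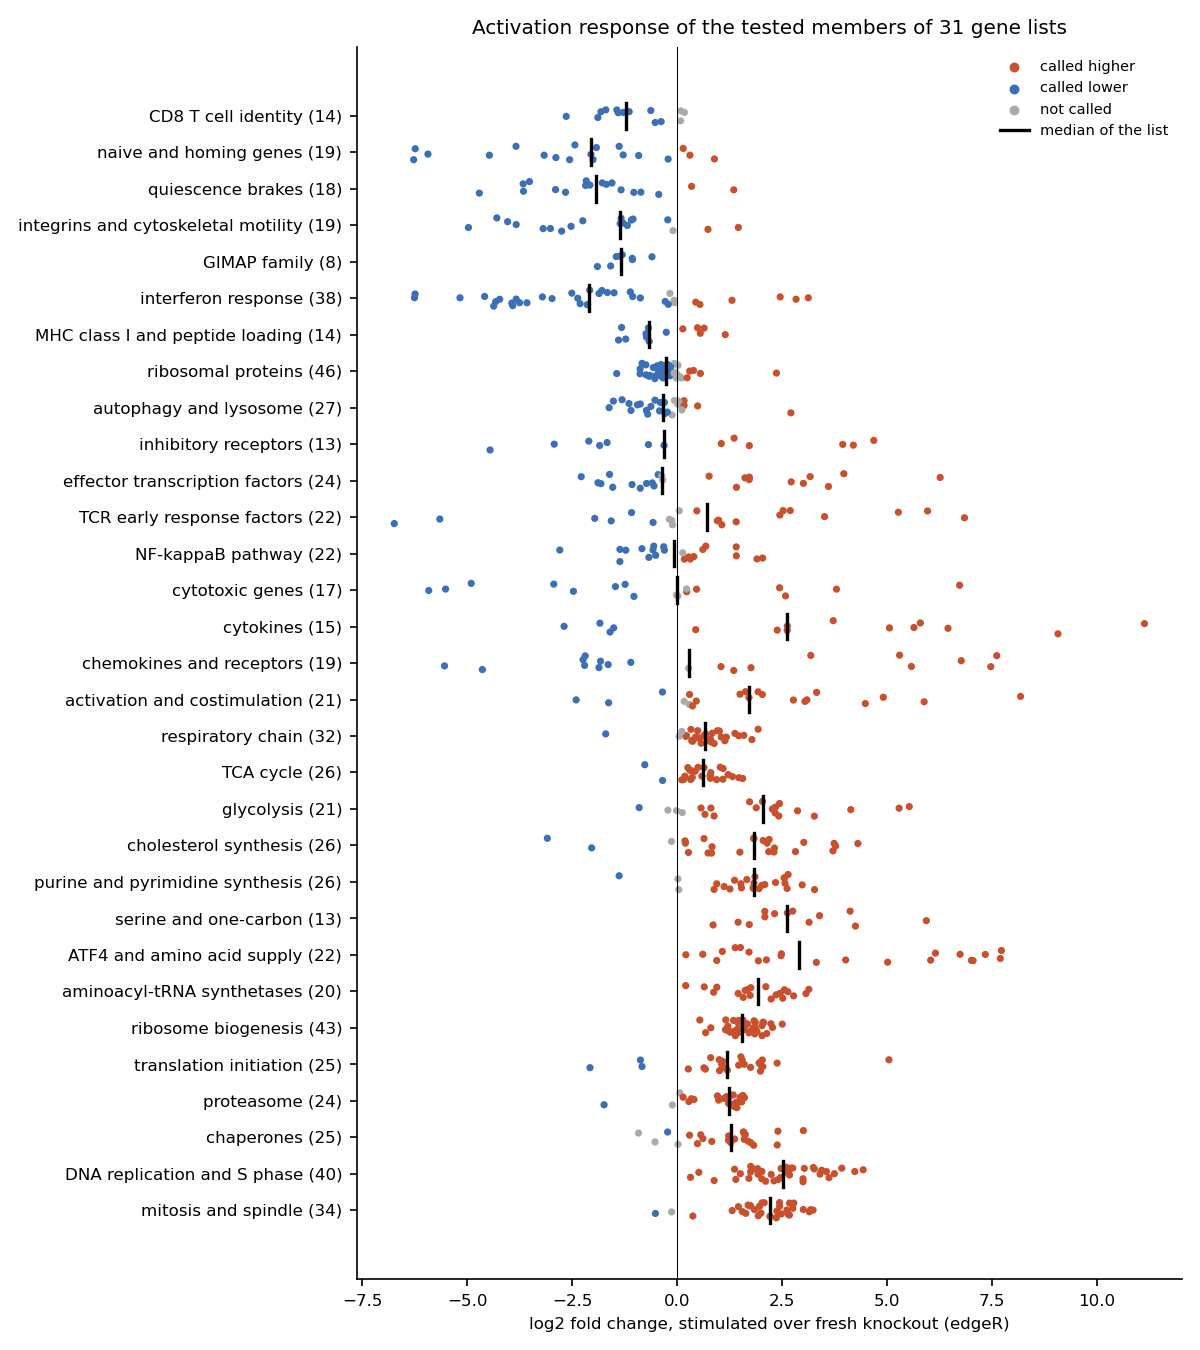
Log2 fold change, stimulated over fresh knockout, of every tested member of 31 gene lists (points: genes, coloured by the edgeR call; black bars: list medians; number tested in brackets). Biosynthesis and cell cycle lists lie to the right of 0, naive, quiescence, integrin, GIMAP and interferon lists mostly to the left, and regulatory lists on both sides.

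Most genes of the naive state and of homing fell. Of 19 genes 16 fell and 3 rose, with a median log2 fold change of −2.05. Klf2, the transcription factor that maintains lymphocyte trafficking, was at 422, 453 and 462 CPM in the fresh libraries and at 5.84, 5.23 and 6.07 CPM in the stimulated ones (log2 fold change −6.28 with SE 0.11, edgeR adjusted p = 3.77e-16). Its target S1pr1, the receptor used to leave lymphoid tissue, fell from 486, 581 and 486 CPM to 5.92, 8.11 and 6.71 CPM (log2 fold change −6.24 with SE 0.12, edgeR adjusted p = 6.47e-16). Il7r, the IL-7 receptor, fell from 582, 643 and 581 CPM to 21.8, 31.2 and 28.7 CPM (log2 fold change −4.47). The transcription factors Tcf7 and Lef1 fell by 2.56 and 2.00 on the log2 scale. Ccr7, the receptor for lymph node chemokines, rose instead, from 412, 565 and 394 CPM to 742, 967 and 829 CPM (log2 fold change 0.89 with SE 0.13, edgeR adjusted p = 7.2e-06), and Bach2, a repressor that preserves naive cells, rose with a log2 fold change of 0.30.

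Most brakes on proliferation fell as well, 16 of 18 lower and 2 higher (median −1.93). Txnip, an inhibitor of glucose uptake, was at 526, 503 and 419 CPM in the fresh libraries and at 57.2, 73.1 and 64.5 CPM in the stimulated ones (log2 fold change −2.90 with SE 0.12, edgeR adjusted p = 2.47e-12). Tsc22d3, which encodes GILZ, fell from 532, 447 and 457 CPM to 16.9, 21 and 17 CPM, and Pik3ip1, an inhibitor of PI3K, from 129, 118 and 126 CPM to 10.6, 12.6 and 9.47 CPM. The antiproliferative genes Btg1 and Btg2 had log2 fold changes of −2.08 and −1.34. The rises were those of Cblb, a ubiquitin ligase that restrains T cell receptor signalling, from 134, 153 and 144 CPM to 369.8, 408 and 322 CPM (log2 fold change 1.35 with SE 0.08, edgeR adjusted p = 1.49e-10), and Slfn2 (log2 fold change 0.34).

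T cell identity genes themselves went down as a share of the library, with 11 of 14 lower and none called higher. Cd8a was at 1526, 1557 and 1562 CPM in the fresh libraries and at 520.1, 481 and 429 CPM in the stimulated ones and Cd8b1, the other chain of the coreceptor, at 1310.1, 1223 and 1332 CPM in the fresh libraries and at 222, 224 and 174 CPM in the stimulated ones (log2 fold change −1.70 and −2.64). Neither overlapped. Cd3e and Cd3g of the receptor complex fell by 1.44 and 1.89. The levels of Cd8a and Cd8b1 go against the dendritic cell tag, while Cd4 was at 7.32, 6.92 and 11.4 CPM in the fresh libraries and at 0.968, 0.418 and 0.516 CPM in the stimulated ones. Without stimulated replicate 2, 2 of the 14 genes were called higher.

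Most adhesion and motility genes fell, with 16 of 19 lower and 2 higher (median −1.36). Itgb7 and Itgae, whose products pair as the CD103 integrin, fell from 711, 716 and 757 CPM to 99.9, 82.2 and 86.8 CPM and from 207, 169 and 184 CPM to 12.3, 9.57 and 6.45 CPM. Itga4 fell by 2.25 on the log2 scale and Itgb2, the LFA-1 beta chain, by 1.09. Itgal, its alpha chain, was at 937, 935 and 931 CPM in the fresh libraries and at 909, 837 and 870.4 CPM in the stimulated ones and was not called (edgeR adjusted p = 0.0707). It was called lower in 6 alternatives, which were the other 3 scalings, DESeq2, limma-voom and the stricter filter, with adjusted p from 0.000534 to 0.0403. Itgav and Itgb1 rose (log2 fold change 1.46 and 0.73). The large cytoskeletal genes Macf1 and Myh9 were among the 8 largest losses of CPM, from 4221 ± 118 to 678 ± 18.9 CPM and from 3373 ± 140.1 to 1259.5 ± 149.6 CPM (mean ± SD, n = 3).

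All 8 GIMAP genes, GTPases of lymphocyte survival, fell, from −1.90 in Gimap6 to −0.60 in Gimap1 on the log2 scale. Of 14 genes of MHC class I presentation 9 fell and 5 rose. H2-K1 was at 2689.9, 2862 and 3025 CPM in the fresh libraries and at 1115, 1104 and 1206 CPM in the stimulated ones (log2 fold change −1.32 with SE 0.06, edgeR adjusted p = 1.53e-11), and its light chain B2m fell by 0.67. H2-K1, H2-D1 and H2-Q4 are related in sequence, and how the counting treated any reads shared between them is not given in the sources used here. Canx, a chaperone for class I heavy chains, rose with a log2 fold change of 1.15.

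Transcripts of other cell types were present in the fresh libraries, and those of dendritic, B and myeloid cells were mostly lower after stimulation. Dendritic cell markers summed to 1738, 1584 and 2309 CPM in the fresh libraries and to 247, 236 and 229.7 CPM in the stimulated ones, and 14 of 16 fell. Itgax, which encodes CD11c, was at 42.4, 30.9 and 41.2 CPM in the fresh libraries and at 1.01, 1.62 and 1.08 CPM in the stimulated ones, and Clec9a at 15.4, 15.3 and 22 CPM in the fresh libraries and at 0.0774, 0.262 and 0.129 CPM in the stimulated ones. The 2 that rose, Batf3 and Zbtb46 (log2 fold change 3.61 and 1.15), are transcription factors counted among these markers. Which cells their transcripts came from was not tested. All 13 B cell markers fell, from a sum of 195 to 270.2 CPM to one of 27.0 to 36.2 CPM, and all 14 myeloid markers, from 381 to 538 CPM to 52.3 to 55.1 CPM. Of 6 CD4 T cell markers 3 fell and 2 rose, Ctla4 and Foxp3. Their sum was 151, 131 and 142 CPM in the fresh libraries and 178, 243 and 114 CPM in the stimulated ones, with overlapping groups. Foxp3 had overlapping libraries, and its call (log2 fold change 0.87 with SE 0.31, edgeR adjusted p = 0.0153) was lost without fresh replicate 2 or without stimulated replicate 1 or 2. Siglech of plasmacytoid dendritic cells was at 0 in stimulated replicates 1 and 3, and C1qb and C1qc of macrophages at 0 in replicates 1 and 2. The part of these cells in the genes that fell, among them Cd86, Entpd1, Cx3cr1 (log2 fold change −4.64) and the interferon-response genes, was not tested.

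**Figure D3:**
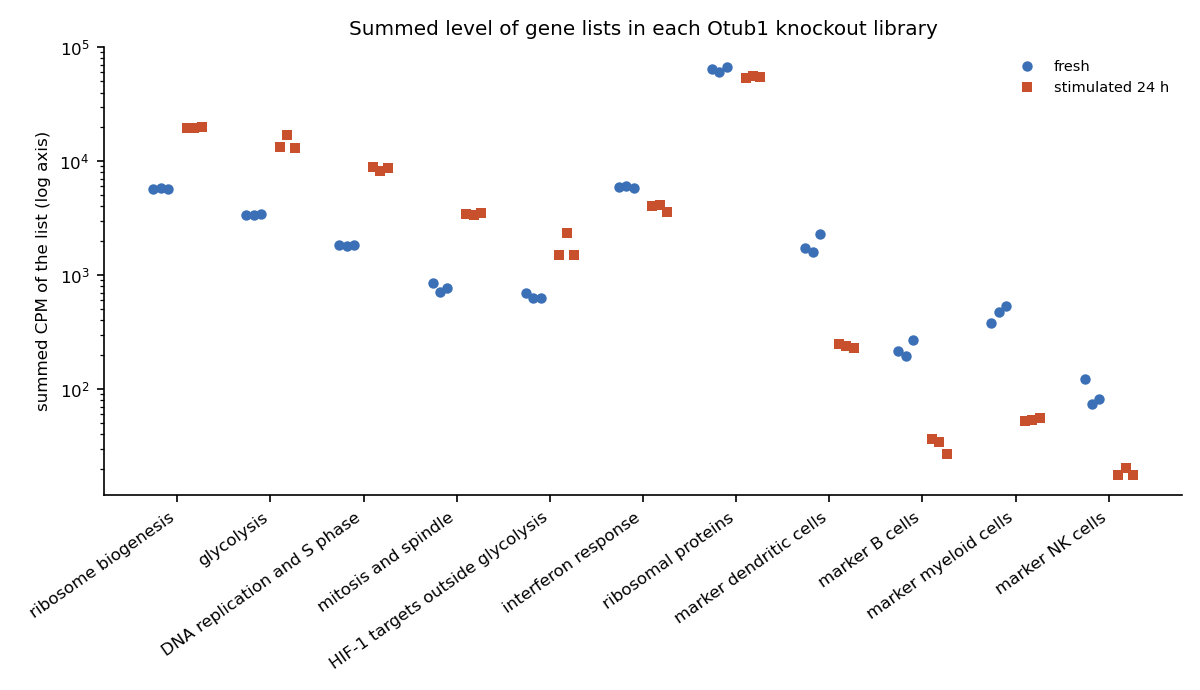
Summed CPM of 11 gene lists in each Otub1 knockout library, on a log axis (circles: 3 fresh libraries; squares: 3 stimulated libraries). Stimulated replicate 2 lies above the other stimulated libraries for glycolysis and for other HIF-1 targets, and the sums of dendritic, B, myeloid and NK cell markers lie lower after stimulation.

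Most genes of glycolysis rose. Of 21 tested genes 17 rose and 1 fell, with a median log2 fold change of 2.04, and the list summed to 3385, 3361 and 3466 CPM in the fresh libraries and to 13430, 17060 and 13000 CPM in the stimulated ones. Hk2, the inducible hexokinase, was at 8.26, 10.3 and 9.83 CPM in the fresh libraries and at 344, 416 and 355 CPM in the stimulated ones (log2 fold change 5.29 with SE 0.11, edgeR adjusted p = 1.18e-15), whereas Hk1 was at 183, 191 and 171 CPM in the fresh libraries and at 189, 217 and 187 CPM in the stimulated ones and was not called. It was called higher without stimulated replicate 3, without the libraries with Y-linked reads and with no filter on low counts (edgeR adjusted p = 0.041, 0.0342 and 0.0431). The glucose transporter Slc2a1 rose from 38.8, 47.3 and 41.9 CPM to 202, 268 and 217 CPM. Tpi1 rose from 49.4, 46.5 and 55.6 CPM to 781, 1152 and 736 CPM, Pgk1 from 203, 201 and 197 CPM to 1744, 2426 and 1630.2 CPM and Ldha, which makes lactate, from 488, 480.0 and 509 CPM to 2304, 2939 and 2208 CPM (log2 fold change 4.14, 3.27 and 2.33). Slc16a3, which exports lactate, rose most, from 2.44, 2.04 and 3.02 CPM to 91.5, 161 and 94.6 CPM. Pdk1, which holds pyruvate back from the mitochondria, was the 1 member that fell, from 263, 263 and 249.8 CPM to 129, 165 and 121 CPM (log2 fold change −0.90 with SE 0.12, edgeR adjusted p = 3.54e-06). Stimulated replicate 2 was the highest of its group for Tpi1, Pgk1, Ldha, Slc16a3 and Pdk1. Without it 17 members were called higher and 2 lower. With all libraries in, 2 were also called lower with upper-quartile scaling, with library sizes only, with limma-voom and with the stricter filter, as they were in a fit of the knockout libraries alone.

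The same library stood out among HIF-1 targets outside glycolysis, of which 13 of 16 rose and 1 fell. Vegfa, a growth factor for blood vessels, was at 0.467, 0.634 and 0.767 CPM in the fresh libraries and at 82.2, 112 and 85.1 CPM in the stimulated ones (log2 fold change 7.20 with SE 0.18, edgeR adjusted p = 8.86e-15). Egln3, a prolyl hydroxylase induced by HIF-1, rose from 8.78, 8.92 and 7.91 CPM to 98.1, 228 and 92 CPM, and Bnip3, a mitophagy receptor, from 5.09, 4.03 and 4.22 CPM to 41.3, 94.3 and 44.1 CPM. Here stimulated replicate 2 stood well above the other stimulated libraries, and every stimulated library lay above every fresh one. Without it 11 of 16 rose and 2 fell. The fall was that of Car9, a carbonic anhydrase, from 1.09, 1.18 and 0.959 CPM to 0.464, 0.209 and 0.258 CPM (edgeR adjusted p = 0.000513).

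The pentose phosphate pathway, which supplies ribose and NADPH, had 7 of 10 genes higher and 3 lower. Prps1 and Tkt rose from 55.8, 55.6 and 52 CPM to 156, 153 and 144 CPM and from 213, 216 and 234 CPM to 618, 551 and 609.6 CPM, G6pdx, its entry enzyme, had a log2 fold change of 1.11, and H6pd and Taldo1 fell by 1.20 and 0.56.

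Mitochondrial genes rose in a narrower range. In the TCA cycle 24 of 26 rose and 2 fell, with a median log2 fold change of 0.62, and in the respiratory chain 29 of 32 rose and 1 fell (0.66). Cs, citrate synthase, was at 221, 207 and 214 CPM in the fresh libraries and at 412, 405 and 414 CPM in the stimulated ones (log2 fold change 0.94 with SE 0.04, edgeR adjusted p = 3.35e-12). Fh1, fumarase, rose from 37, 34.6 and 35.8 CPM to 106, 108 and 103 CPM. Both NADP-dependent isocitrate dehydrogenases, Idh1 and Idh2, fell (log2 fold change −0.77 and −0.35), and the NAD-dependent Idh3a rose by 1.22. Ogdh, of the oxoglutarate dehydrogenase, was at 301, 286 and 283 CPM in the fresh libraries and at 328, 290.5 and 324 CPM in the stimulated ones. Its call (log2 fold change 0.11 with SE 0.05, edgeR adjusted p = 0.0423) was lost in most alternative settings, and the direction turned with upper-quartile scaling. Cycs, cytochrome c, was at 76.2, 78.9 and 83.9 CPM in the fresh libraries and at 294, 314 and 304 CPM in the stimulated ones (log2 fold change 1.93 with SE 0.05, edgeR adjusted p = 6.17e-15), and Atp5a1 of ATP synthase rose from 593, 582 and 593 CPM to 1057, 1019.8 and 1079 CPM. The fall in the respiratory chain was that of Cox7a2l, from 353, 319 and 350.1 CPM to 109, 105 and 100.4 CPM.

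Most genes of sterol and fatty acid synthesis rose. Of 26 cholesterol genes 22 rose and 2 fell (median 1.83). Idi1, an isomerase early in the pathway, was at 17.8, 14.6 and 16.1 CPM in the fresh libraries and at 329, 320.5 and 307 CPM in the stimulated ones (log2 fold change 4.31 with SE 0.09, edgeR adjusted p = 2.09e-15). Sqle, squalene epoxidase, rose from 8.31, 7.06 and 10.2 CPM to 125, 118 and 107 CPM (log2 fold change 3.78). The exporters Abca1 and Abcg1, targets of the sterol sensor LXR, were the genes that fell, from 74.3, 122 and 74.9 CPM to 10.4, 9.26 and 12 CPM and from 148, 192 and 149.96 CPM to 43.2, 35 and 40.7 CPM. In fatty acid synthesis 9 of 12 rose and 2 fell. Acaca, acetyl-CoA carboxylase, rose from 62.4, 74.5 and 67.4 CPM to 369, 337 and 358 CPM, and Scd2 from 92.9, 119 and 93.7 CPM to 584, 610.5 and 583 CPM, while its paralog Scd1 was at 15.5, 18.8 and 24.1 CPM in the fresh libraries and at 17.8, 16.3 and 18.5 CPM in the stimulated ones and was not called. Elovl5 and Elovl6 fell by 0.61 and 0.67 on the log2 scale.

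Genes of amino acid supply rose without exception. All 22 genes of the ATF4 and amino acid supply list, all 13 of serine and one-carbon metabolism and all 20 aminoacyl-tRNA synthetases rose, with medians of 2.90, 2.63 and 1.94. Asns, asparagine synthetase, was at 0.935, 1.13 and 1.49 CPM in the fresh libraries and at 254, 274 and 231 CPM in the stimulated ones (log2 fold change 7.73 with SE 0.14, edgeR adjusted p = 4.35e-16). Cth, cystathionine gamma-lyase (chromosome 3, 157894248 to 157925081), had the highest log2 fold change of all genes that met the limits for naming and was at 0.467, 0.181 and 0.431 CPM in the fresh libraries and at 138, 143 and 145 CPM in the stimulated ones (log2 fold change 8.62 with SE 0.17, edgeR adjusted p = 8.97e-16). Atf4 itself rose from 207, 207 and 208 CPM to 563, 614 and 592 CPM, and Ddit3, another stress-response factor, from 12.8, 13.5 and 13.3 CPM to 17.8, 23.8 and 19 CPM. Transporters rose with them: Slc7a5, the large neutral amino acid transporter, was at 67.6, 64.8 and 68.9 CPM in the fresh libraries and at 1062, 1088 and 1105 CPM in the stimulated ones (log2 fold change 4.02 with SE 0.06, edgeR adjusted p = 1.52e-16), and Slc6a9, Slc1a4 and Slc7a3 had log2 fold changes of 8.58, 7.05 and 6.80. Bcat1 and Gpt2, both transaminases, rose by 7.32 and 6.74 on that scale.

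Within the serine pathway Psat1 was at 39.7, 37.7 and 38.1 CPM in the fresh libraries and at 662, 691 and 656 CPM in the stimulated ones (log2 fold change 4.12 with SE 0.05, edgeR adjusted p = 7.24e-18). Phgdh, the first enzyme, rose from 112, 108 and 126 CPM to 774, 757 and 799 CPM, and the mitochondrial folate enzymes Shmt2 and Mthfd2 rose from 146, 139 and 149.96 CPM to 908, 844 and 935 CPM and from 19.7, 21.3 and 23 CPM to 391, 421 and 404 CPM. Among the synthetases Aars rose most, from 59.3, 55.2 and 60.5 CPM to 508, 501 and 531 CPM, and Wars, for tryptophan, had a log2 fold change of 1.74. Polyamine synthesis had 8 of 10 tested genes higher and none called lower, or 2 lower without stimulated replicate 2. Odc1, its first enzyme, was at 108, 137 and 101 CPM in the fresh libraries and at 714, 757 and 724 CPM in the stimulated ones (log2 fold change 2.67 with SE 0.10, edgeR adjusted p = 7.88e-13), and Srm, spermidine synthase, rose from 42.2, 44 and 50 CPM to 326, 269 and 334 CPM.

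Nucleotide synthesis and ribosome assembly rose with few exceptions. Of 26 genes of purine and pyrimidine synthesis 23 rose and 1 fell (median 1.82), and all 43 genes of ribosome biogenesis rose (median 1.55). Rrm2, a subunit of ribonucleotide reductase, was at 31.4, 28.1 and 30.5 CPM in the fresh libraries and at 298, 265 and 307 CPM in the stimulated ones (log2 fold change 3.27 with SE 0.08, edgeR adjusted p = 5.32e-15). The pyrimidine genes Cad, Umps and Ctps had log2 fold changes of 1.95, 2.57 and 2.34, and Impdh2, the rate-limiting enzyme of guanine nucleotide synthesis, was at 141, 136 and 146 CPM in the fresh libraries and at 500.4, 513 and 493 CPM in the stimulated ones. Ctps2, another CTP synthase, was the 1 member that fell, from 109, 99.1 and 96.6 CPM to 40.2, 41.4 and 35.2 CPM. Ncl, which encodes nucleolin, was at 833, 880.0 and 791 CPM in the fresh libraries and at 3964, 4092 and 4046 CPM in the stimulated ones (log2 fold change 2.27 with SE 0.06, edgeR adjusted p = 2.64e-14), and Npm1, nucleophosmin, at 812, 823 and 802 CPM in the fresh libraries and at 3480.5, 3668 and 3567 CPM in the stimulated ones. Polr1a and Polr1b, subunits of RNA polymerase I, rose by 1.45 and 1.83. The ribosome biogenesis list summed to 5644, 5818 and 5723 CPM in the fresh libraries and to 19430, 19490 and 20100 CPM in the stimulated ones.

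The promoters of these genes were searched for CACGTG, the E-box that MYC binds, in windows from 250 bases before to 50 after 1 RefSeq start per gene (GRCm38.p6). CACGTG is its own reverse complement. It was in 8 of 38 windows of ribosome biogenesis genes (21.1%), in 5 of 24 of nucleotide synthesis genes (20.8%), and in 1957 of 27025 windows of the whole table (7.24%). The whole table also holds genes that were not tested, whereas all list genes were tested, so these shares are of unlike sets. A share over the 9489 tested genes with a window is not given. A match is a description of the sequence, not evidence of binding. The 120 bases before the start are shown for the nucleotide synthesis genes Impdh2 (chr9:108560316-108560435, plus strand) and Atic (chr1:71557036-71557155, plus strand), key genes of their list that hold the match there, with CACGTG in capitals.
Impdh2: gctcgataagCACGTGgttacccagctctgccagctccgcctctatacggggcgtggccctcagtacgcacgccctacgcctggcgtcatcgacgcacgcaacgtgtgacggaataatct
Atic: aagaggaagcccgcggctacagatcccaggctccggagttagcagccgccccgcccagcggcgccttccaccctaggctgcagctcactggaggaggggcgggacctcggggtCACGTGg

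Ribosomal protein genes did not follow the assembly factors. Of 46 tested, 5 rose and 33 fell, mostly by little (median log2 fold change −0.26), and they summed to 63950, 60810 and 66480 CPM in the fresh libraries and to 54020, 55390 and 54510 CPM in the stimulated ones. Rplp0 was at 3495, 3314 and 3678 CPM in the fresh libraries and at 3155, 2999 and 3180.4 CPM in the stimulated ones (log2 fold change −0.17 with SE 0.07, edgeR adjusted p = 0.0306), a call lost without fresh replicate 1 or 3, without stimulated replicate 1 or 2 and with no filter on low counts. Rps27l, a p53-responsive paralog, rose from 19.9 ± 0.689 to 103 ± 4.49 CPM (mean ± SD, n = 3), and Rps2 by 0.55 on the log2 scale. Ribosomal protein genes have many pseudogene copies, and how reads shared with these were counted is not given in the sources used here. Eef1a1 and Tpt1, translation-related transcripts, were among the 8 largest losses of CPM, from 13384 ± 425 to 11254 ± 1064 CPM and from 4385 ± 217 to 2054 ± 150.1 CPM (mean ± SD, n = 3).

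Translation initiation and protein quality control rose. Of 25 initiation genes 22 rose and 3 fell (median 1.20). Eif4e, the cap-binding factor, was at 57, 58.4 and 53.5 CPM in the fresh libraries and at 218, 248.6 and 229 CPM in the stimulated ones (log2 fold change 2.04 with SE 0.05, edgeR adjusted p = 1.36e-14), and its inhibitor Eif4ebp1 rose more, from 4.62, 5.07 and 5.7 CPM to 161, 169 and 180.5 CPM. Pdcd4, an inhibitor of the helicase EIF4A, fell from 339.9, 336 and 309.6 CPM to 85.5, 81.3 and 66.8 CPM. In the chaperone list 21 of 25 rose and 1 fell, and in the proteasome list 21 of 24 rose and 1 fell. Hsp90ab1 had the largest gain of CPM of all genes, from 1799 ± 55.5 to 5550.0 ± 26.8 CPM (mean ± SD, n = 3), and Hspd1, a mitochondrial chaperonin, rose from 187, 188 and 201 CPM to 1492, 1588 and 1547 CPM. Psmd1 of the regulatory particle rose by 1.6 and Psme3, an activator, by 1.57. The immunoproteasome subunits behaved otherwise: Psmb10 fell from 149, 152 and 172 CPM to 50.5, 42 and 48.8 CPM, and Psmb8 and Psmb9 were not called. Psmb9 was called lower with upper-quartile scaling and with the stricter filter (edgeR adjusted p = 0.00571 and 0.0226).

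Signalling and recycling pathways changed in part. Of 27 genes of the PI3K, AKT and mTOR pathway 10 rose and 11 fell. Akt1 was at 128, 127 and 129.9 CPM in the fresh libraries and at 204, 202 and 215 CPM in the stimulated ones (log2 fold change 0.69 with SE 0.06, edgeR adjusted p = 4.81e-08), and Mtor had a log2 fold change of 0.51. Sesn2 and Sesn1, sensors upstream of mTOR, moved apart, from 6.44, 8.55 and 8.77 CPM to 74, 79.9 and 84 CPM and from 88.2, 87.1 and 87 CPM to 22.3, 20.8 and 22.2 CPM. Trib3, an inhibitor of AKT and target of ATF4, rose from 1.61, 1.36 and 1.44 CPM to 94.3, 114 and 106 CPM. In the autophagy and lysosome list 4 of 27 rose and 17 fell (median −0.35), with Map1lc3b down by 1.15 and its relative Gabarapl1 up by 2.71 on the log2 scale. Of 14 iron genes 5 rose and 8 fell, or 5 without fresh replicate 3. Tfrc, the transferrin receptor, was at 135, 159.8 and 139 CPM in the fresh libraries and at 1181, 1263 and 1259 CPM in the stimulated ones (log2 fold change 3.09 with SE 0.08, edgeR adjusted p = 8.86e-15), and Fth1, the ferritin heavy chain, fell from 265, 259 and 277 CPM to 161, 161 and 163 CPM. Slc40a1, the iron exporter abundant in macrophages, fell from 7.48, 3.62 and 11.2 CPM to 0.116, 0.105 and 0 CPM, and the part of the myeloid markers above in this was not tested. Of 20 p53 targets 12 rose and 7 fell. Trp53 was at 193, 201 and 215 CPM in the fresh libraries and at 203, 179 and 202 CPM in the stimulated ones and was not called, but was called lower with upper-quartile scaling and with the stricter filter (edgeR adjusted p = 0.00534 and 0.0287).

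The cell cycle machinery rose through S phase and mitosis. All 40 genes of DNA replication and S phase rose (median 2.53), and 32 of 34 mitosis genes rose and 1 fell (median 2.21). Mcm10 and Orc1, of origin licensing and firing, rose from 7.17, 6.34 and 7.48 CPM to 140.0, 122 and 132 CPM and from 2.65, 3.21 and 2.35 CPM to 60.8, 58.9 and 58.6 CPM. Mcm5 of the replicative helicase was at 90.9, 94.3 and 97.4 CPM in the fresh libraries and at 613, 557 and 609 CPM in the stimulated ones (log2 fold change 2.65 with SE 0.06, edgeR adjusted p = 3.72e-15), and Pcna, the sliding clamp, rose from 179.7, 176 and 182 CPM to 682, 679 and 672 CPM. Cdk1, the mitotic kinase, was at 9.56, 7.74 and 9.78 CPM in the fresh libraries and at 86.5, 84.5 and 84.1 CPM in the stimulated ones (log2 fold change 3.24 with SE 0.09, edgeR adjusted p = 3.55e-14), and Ccnb1 rose from 9.87, 7.51 and 7.48 CPM to 53.8, 49.8 and 54.9 CPM. Mki67, which encodes the proliferation marker Ki-67, rose from 190.4, 155 and 166 CPM to 653, 669.7 and 669.7 CPM (log2 fold change 1.96 with SE 0.11, edgeR adjusted p = 9.27e-11). Ccnb2, another cyclin B, was at 12.6, 9.73 and 11.4 CPM in the fresh libraries and at 14, 15.1 and 14.5 CPM in the stimulated ones. Its small rise (log2 fold change 0.37 with SE 0.13, edgeR adjusted p = 0.0164) was not called with upper-quartile scaling, with a stricter filter, without fresh replicate 2 or when the libraries with Y-linked reads were left out. The member that fell was Cenpa, the centromeric histone, from 20.7, 22.5 and 20.7 CPM to 16.3, 11.4 and 16.7 CPM (log2 fold change −0.52 with SE 0.13, edgeR adjusted p = 0.00182).

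In G1, 13 of 19 tested genes rose and 6 fell. Ccnd2 was at 678, 766 and 671 CPM in the fresh libraries and at 1479, 1536 and 1522 CPM in the stimulated ones (log2 fold change 1.10 with SE 0.06, edgeR adjusted p = 5.24e-11), Cdk4 and Cdk6 rose by 1.62 and 2.59 on the log2 scale, and Ccnd1 fell from 9.45, 11.5 and 15.8 CPM to 1.2, 1.2 and 1.29 CPM. The inhibitors parted as well. Cdkn1b, which encodes p27, fell from 106, 126 and 110.0 CPM to 33.9, 38.8 and 33.6 CPM, and Cdkn2d, which encodes p19, by 2.18. Cdkn1a, which encodes p21, rose from 2.8, 2.58 and 3.69 CPM to 52.1, 68.2 and 80.6 CPM (log2 fold change 4.47 with SE 0.22, edgeR adjusted p = 2.23e-11).

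The promoters of mitosis genes were searched for TTTGAA, the cell cycle homology region bound by the DREAM and B-MYB complexes, and for CCAAT, the NF-Y box, on both strands. Neither motif contains the other. TTTGAA was in 22 of 29 windows of mitosis genes (75.9%), in 6 of 33 of S phase genes (18.2%) and in 4893 of 27025 of the table (18.1%). CCAAT was in 23 of 29 (79.3%), 20 of 33 (60.6%) and 10248 of 27025 (37.9%). Both lists rose almost in full. As above, the table also holds genes that were not tested, so its shares are of an unlike set. The promoters shown were chosen among key mitosis genes that hold TTTGAA. The 120 bases before the start are shown for Cdk1 (chr10:69352913-69353032, minus strand) and Mki67 (chr7:135716380-135716499, minus strand), which holds TTTGAA but no CCAAT there, with TTTGAA and CCAAT on either strand in capitals. In RefSeq the Mki67 gene reaches to 135716450, so part of the stretch shown for it lies inside the gene.
Cdk1: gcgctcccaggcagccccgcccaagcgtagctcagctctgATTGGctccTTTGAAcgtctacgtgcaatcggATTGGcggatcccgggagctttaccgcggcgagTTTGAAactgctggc
Mki67: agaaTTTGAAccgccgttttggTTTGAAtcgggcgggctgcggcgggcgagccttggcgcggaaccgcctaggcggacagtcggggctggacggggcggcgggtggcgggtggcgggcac

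Most interferon-response genes fell. Of 38 genes 29 fell and 6 rose, with a median log2 fold change of −2.11. Irf7, the factor that amplifies type I interferon production, was at 349, 354 and 339.8 CPM in the fresh libraries and at 14.2, 18.9 and 10.6 CPM in the stimulated ones (log2 fold change −4.59 with SE 0.22, edgeR adjusted p = 1.35e-11). Oas2 and Rsad2, antiviral effectors, fell from 259.7, 251 and 266 CPM to 3.64, 4.08 and 2.58 CPM and from 96.1, 88.5 and 70.3 CPM to 1.01, 1.78 and 0.645 CPM. Ifit3 fell from 162, 139 and 124 CPM to 3.33, 4.97 and 3.66 CPM, Ifit1 from 132, 135 and 117 CPM to 8.71, 9.73 and 7.01 CPM and Isg15, a ubiquitin-like modifier, from 80.4, 78.6 and 89.7 CPM to 25.2, 32.1 and 21.6 CPM (log2 fold change −5.17, −3.92 and −1.66). Gbp2, a GTPase that interferon gamma induces, was at 114, 121 and 122 CPM in the fresh libraries and at 717, 671 and 572 CPM in the stimulated ones (log2 fold change 2.46 with SE 0.11, edgeR adjusted p = 3.79e-12), and Gbp5 and Iigp1, of the same kind, rose from 42.1, 44.8 and 42.3 CPM to 370.0, 423 and 336 CPM and from 9.71, 16.2 and 11.6 CPM to 90.1, 89.2 and 90.02 CPM. The other genes that rose were the GTPase genes Igtp, Irgm1 and Irgm2, named after their values were seen. The groups did not overlap for the genes given with values here. Gbp genes are close paralogs, and the handling of shared reads is not stated in the labels. Dendritic cell markers, given above, fell over the same comparison.

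The core of the interferon-stimulated response element, which type I interferon signalling acts through, was searched on both strands as GAAA, any 2 bases and GAAA again. It was in 943 of 27025 windows of the table (3.49%). Only 26 of the 38 interferon-response genes had a window in the table, 68.4%, under the 80% set as the least for a share of the list, so none is given. The 120 bases before the start are shown for Isg15 (chr4:156200819-156200938, minus strand), which fell, and Gbp2 (chr3:142620543-142620662, plus strand), which rose, with matches in capitals. Only key genes that hold the motif in these bases could be shown, so its presence in both was fixed by that choice. In Isg15 the copies overlap.
Isg15: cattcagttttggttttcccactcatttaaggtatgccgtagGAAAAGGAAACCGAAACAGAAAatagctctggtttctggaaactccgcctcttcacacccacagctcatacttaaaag
Gbp2: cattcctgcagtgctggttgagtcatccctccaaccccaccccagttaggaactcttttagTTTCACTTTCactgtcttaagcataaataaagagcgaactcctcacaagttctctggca

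Further genes with the widest changes belonged to no single list above. Ak4, a mitochondrial adenylate kinase, rose from 0.364, 0.769 and 0.288 CPM to 69.6, 125 and 71.1 CPM, with stimulated replicate 2 highest. Rgs16, a regulator of chemokine receptor signalling, rose from 2.86, 2.44 and 1.58 CPM to 278, 268 and 317 CPM, and Nrn1, a surface protein of neurons and regulatory or anergic T cells, from 0.208, 0.272 and 0.671 CPM to 43.1, 46 and 46.6 CPM. Ampd1, AMP deaminase (chromosome 3, 103073897 to 103099720), had the lowest log2 fold change of the genes that met the limits for naming by fold, −7.70, and was at 34.7, 34.3 and 35.5 CPM in the fresh libraries and at 0.271, 0.0523 and 0.129 CPM in the stimulated ones. Ggt1, gamma-glutamyltransferase, fell from 83.2, 100.5 and 91.1 CPM to 0.735, 0.418 and 0.559 CPM and Cd7, a T cell surface protein, from 239, 225 and 232 CPM to 2.01, 2.25 and 1.85 CPM. Baiap3 fell from 124, 134 and 119 CPM to 0.774, 1.41 and 1.42 CPM, and Fcgrt, the neonatal Fc receptor, and Plbd1 had log2 fold changes of −5.92 and −6.80. Myeloid cells express both, and their part in these falls was not tested. Of single transcripts lost, Malat1, a nuclear noncoding RNA, went from 2338 ± 191 to 622 ± 66.9 CPM and Ptprc, which encodes CD45, from 2963 ± 73.9 to 1459.8 ± 38.1 CPM (mean ± SD, n = 3).

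The response was compared with that of wild-type cells, which share no library with it. Across the 12759 genes the log2 fold changes of both genotypes had a Pearson r of 0.963 and a Spearman rho of 0.973, a description across genes, which are not independent. Of the 5433 genes changed by at least 2-fold in the knockout, 5415 had the same sign in wild type and 18 the opposite. The difference itself was tested as the interaction, the log2 fold change in knockout minus that in wild type. It was more positive for 89 genes (0.698%) and more negative for 199 (1.56%). At an unadjusted p under 0.05 there were 2086. Of the 288 called genes 272 were called for activation in the knockout, and the effect was larger there in 218 and smaller in 54. The largest class, 161 genes, fell in the knockout with a more negative effect. The number of calls depended on single libraries: without fresh wild-type replicate 2 it was 32 and 103, and without stimulated wild-type replicate 3 it was 32 and 99. It was 39 and 127 without fresh knockout replicate 1 and 43 and 118 without fresh wild-type replicate 3. The more positive calls alone were 55 without fresh knockout replicate 3 and 153 without stimulated wild-type replicate 1. Y-linked reads were in fresh knockout replicate 2, stimulated knockout replicate 3 and fresh wild-type replicate 3, but in no stimulated wild-type library. The fit held no term for this, and without these libraries the calls were 55 more positive and 67 more negative.

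**Figure D4:**
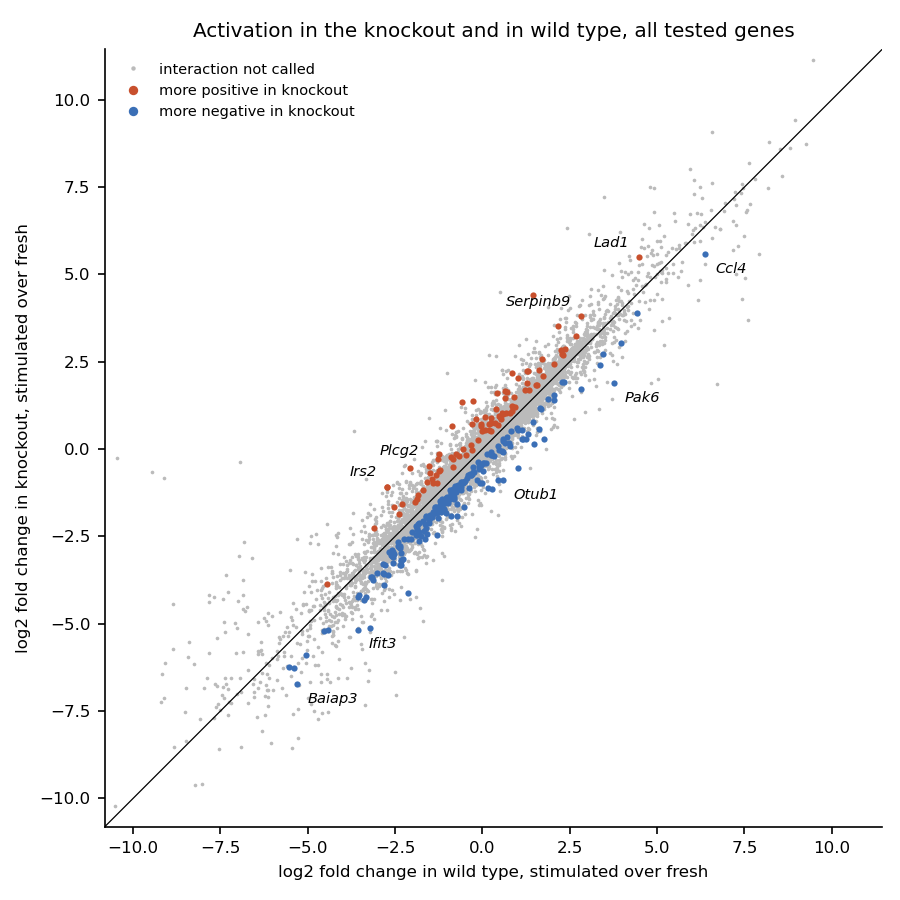
Log2 fold change, stimulated over fresh, of all 12759 tested genes in wild type (x axis) and Otub1 knockout (y axis), with genes called for the interaction in colour. The points lie along the line of equal change, and Otub1, Pak6, Ifit3 and Baiap3 lie below it and Irs2, Plcg2, Serpinb9 and Lad1 above it.

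Some genes fell less in the knockout. Irs2, an adaptor between insulin receptors and PI3K, was at 42.9, 87.3 and 37.2 CPM fresh and 21.6, 31.2 and 26.9 CPM stimulated in the knockout, and at 90.9, 94.9 and 124 CPM fresh and 14, 18.7 and 13.6 CPM stimulated in wild type (interaction 1.66, SE 0.36, edgeR adjusted p = 0.0259). The call was lost in 5 of the fits that left out 1 library, with edgeR adjusted p from 0.056 to 0.0731. Fam46a and Plaur, the urokinase receptor gene, went the same way (interaction 1.63 and 1.53), as did Plcg2, a phospholipase of B cell receptor signalling (1.06). The fall of Plaur in the knockout was not called without fresh replicate 2 (edgeR adjusted p = 0.0849). Others rose more: Serpinb9 had log2 fold changes of 3.80 in knockout and 2.83 in wild type (interaction 0.96, SE 0.14, edgeR adjusted p = 0.00535), and Hilpda, a lipid droplet gene induced by HIF-1, of 1.67 and 0.63. The interaction of Hilpda was not called with limma-voom (adjusted p = 0.0617). Glycolysis had 3 of its 21 genes called with a more positive effect, and the median interaction of the list was 0.38. Among them were Gapdh and Pgam1 (interaction 0.38 and 0.49, edgeR adjusted p = 0.0494 and 0.0175). Stimulated knockout replicate 2 had the highest sum of its group for this list. Fits without it were not examined for the interaction of Gapdh and Pgam1. Fdps of cholesterol synthesis, Cdk1 and Impdh2 were called too (0.57, 0.56 and 0.28).

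Other genes fell more or rose less in the knockout. Klf2 had log2 fold changes of −6.28 and −5.41 (interaction −0.87, SE 0.16, edgeR adjusted p = 0.0105), and S1pr1 of −6.24 and −5.54 (interaction −0.70). Of 38 interferon-response genes 6 were called with a more negative effect. Ifit3 had log2 fold changes of −5.17 and −3.56 (interaction −1.61). The call of Ifit3 was lost without any 1 of 9 of the 12 libraries and with limma-voom (adjusted p = 0.124). The summed level of that list was 5925 ± 159 CPM fresh and 3947 ± 295 CPM stimulated in the knockout, and means of 4950 and 4887 CPM in wild type. Tbx21 was at 25.6, 38.7 and 27.7 CPM fresh and 107, 93 and 103 CPM stimulated in the knockout and at 12.5, 11.7 and 14 CPM fresh and 89.8, 94.7 and 84.5 CPM stimulated in wild type (interaction −1.10, SE 0.17, edgeR adjusted p = 0.0064), so the fresh knockout libraries lay above all fresh wild-type ones, while the stimulated groups overlapped. Pak6, a kinase, was higher in the knockout in both states, with 4.57, 5.02 and 4.27 CPM fresh and 17, 16.6 and 17.6 CPM stimulated in the knockout and 1.4, 0.727 and 0.799 CPM fresh and 12.4, 12.2 and 15.2 CPM stimulated in wild type (interaction −1.90, SE 0.24, edgeR adjusted p = 0.00329). Eomes, Ccl4 and Itm2a rose less as well (interaction −0.67, −0.78 and −1.04).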

How the data were processed

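RNA of 12 libraries was sequenced by the authors, who deposited, for each library, raw counts of reads keyed by gene symbol. The submitters' processing notes name HTSeq, TopHat, TopHat2 and DESeq2, and mm10 as the build. For their versions, roles and settings, strand included, the entry is: not given in the sources used here. Lines of the counting summary, 5.22% to 6.43% of a library, were left out.

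Libraries were grouped by source label, with replicate numbers in accession order that serve as names only. Counts were tested in R 4.3.3 with edgeR 4.0.16 (filterByExpr, TMM, quasi-likelihood, 1 coefficient per group over all 12 libraries, 8 residual degrees of freedom, two-sided), adjusted by Benjamini-Hochberg over all 12759 genes. The code was tested on simulated data. The genes and lists were chosen with earlier results of these data known. The genes named were Otub1, the 15 highest and 15 lowest log2 fold changes among called genes whose log2 CPM averaged 4 or more, with no overlap and no predicted or receptor segment genes, the 8 largest gains and losses of mean CPM, the 10 highest and lowest interactions where it averaged 3 or more, and in each list the chosen key genes and the 2 called members furthest up and down. Of 413 such genes a selection is described, and some are not reported here. Alternatives were other scaling factors, DESeq2 1.42.0, limma-voom (limma 3.58.1), other filters, fewer libraries and a test against 2-fold. Promoters and coordinates are from RefSeq on GRCm38.p6, in which 409 of the 413 genes were found.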

Additional observations from a re-analysis of the deposited data

Results flagged for a closer look

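Of the named genes reported here, 43 responded differently to stimulation in the knockout and in wild type by the test of the difference itself (edgeR, adjusted p under 0.05). Values below are the log2 fold change in knockout minus that in wild type.

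In 27 of them the difference was negative. Genes that fell further in the knockout were Ifit3 (−1.61), Baiap3 (−1.42), Ctla2a (−1.21), Art2b (−1.07), Klf2 (−0.87), Ltb (−0.80), S1pr1 (−0.70), Psmb10 (−0.54), Trp53inp1 (−0.54), Hmha1 (−0.53), Nfkbiz (−0.49), Itgb7 (−0.49), Tapbp (−0.42), Cd3g (−0.40), Il2rg (−0.37) and Cd3e (−0.27). Klf2 and its target S1pr1 are both in this group, as are the T cell receptor chains Cd3e and Cd3g. Genes that rose less were Pak6 (−1.90), Tbx21 (−1.10), Itm2a (−1.04), Ccl4 (−0.78), Eomes (−0.67) and Slfn2 (−0.35). Otub1 (−1.47) and the membrane protein gene Ms4a4c (−1.28) were lower after stimulation in the knockout and had a positive estimate in wild type. The water channel gene Aqp9 (−1.46), Bcl2l11 (−0.68) and Itgal (−0.35) were not called in the knockout.

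In 16 the difference was positive. Genes that rose more in the knockout were Unc13a (1.20), Hilpda (1.04), Basp1 (1.04), Clcn5 (1.02), Lad1 (1.00), Serpinb9 (0.96), Fdps (0.57), Cdk1 (0.56), Pgam1 (0.49), Gapdh (0.38) and Impdh2 (0.28). Fam46a (1.63), Irs2 (1.66), Plaur (1.53) and Plcg2 (1.06) fell less, and Scd1 (1.08) was not called in the knockout. The estimates had opposite signs in the genotypes for 5 of the 43 genes, Otub1, Ms4a4c, Bcl2l11, Itgal and Basp1. The 12 fits that left out 1 library each were examined for 20 genes, those named for their interaction. The call was lost in 9 for Ifit3 and Art2b, in 7 for Unc13a, in 6 for Basp1, in 5 for Irs2, in 4 for Hilpda, in 3 each for Clcn5, Lad1 and Scd1 and in 2 for Aqp9. With every library that held Y-linked reads left out, Ms4a4c lost its call (edgeR adjusted p = 0.0635). In that fit Unc13a, Scd1, Basp1, Hilpda, Lad1, Ifit3 and Art2b lost theirs too (edgeR adjusted p from 0.0635 to 0.186). By limma-voom Baiap3 was not called (adjusted p = 0.0555), nor were Unc13a, Hilpda, Lad1, Ifit3 and Art2b (adjusted p from 0.0591 to 0.132). For the other 23 genes, among them Klf2, S1pr1, Cd3e and Gapdh, these fits were not examined.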

How the results depend on the processing

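The numbers of genes that rose and fell stayed within 1.5 times of the values given in every alternative, from 5195 to 5294 higher and from 5254 to 5360 lower when 1 knockout library was left out. The call was the same in every alternative that tested the gene for 389 of 413 named genes, the test against a fold of 2 aside. Over the fits that used all 12 libraries it was the same for 14 of 20 interactions. With upper-quartile scaling 44.8% of called genes were higher, against 49.7%, and Ogdh turned from 0.11 to −0.0104. The interaction counts moved: DESeq2 called 197 more positive and 358 more negative, no filter on low counts gave 151 more positive, and leaving out the libraries with Y-linked reads gave 55 and 67. Leaving out 1 library gave 32 to 153 more positive and 99 to 252 more negative, with 39 and 127 without fresh knockout replicate 1, 43 and 118 without fresh wild-type replicate 3, 55 more positive without fresh knockout replicate 3 and 153 without stimulated wild-type replicate 1. The cause was not tested. A test against a fold of 2 (glmTreat) called 2102 higher and 2350 lower. Of 96 counts over lists 83 stayed within 1.5 times. Depth limits the rest: genes with few reads in all libraries were filtered out and were not tested. No paired analysis was possible because the replicate numbers follow the order of accessions and link no samples across groups.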
